A study of Rattus norvegicus with 6 samples.

Results

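The tachykinin, neurotensin and cholecystokinin systems of the rat amygdala were followed through 10 genes, 4 that encode peptide precursors (Tac1, Tac3, Nts and Cck) and 6 that encode their receptors (Tacr1, Tacr3, Ntsr1, Ntsr2, Cckar and Cckbr). The genes were taken by symbol from the 38445 genes counted in each library. All 10 were present and were expressed highly enough to be tested. Amygdala RNA came from adult male Sprague Dawley wild-type rats killed 1 h after an intraperitoneal injection. The control group had received saline and the ethanol group 1 g/kg of ethanol, and the groups did not differ in any other labelled treatment. Each group of 6 rats gave 3 libraries, each of them a pool of RNA from 2 rats, so no value belongs to a single animal. The dissection took the central, medial and basolateral nuclei together.

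Tac1 encodes the precursor of substance P and neurokinin A, and Tac3 that of neurokinin B. Substance P prefers the NK1 receptor (Tacr1) and neurokinin B the NK3 receptor (Tacr3). Nts encodes the precursor of neurotensin and neuromedin N, which act on the high-affinity receptor Ntsr1 and on Ntsr2, a receptor found on astrocytes as well as neurons. Cck encodes the precursor of the cholecystokinin peptides, whose receptors are Cckar and, in most of the forebrain, Cckbr. These receptors couple mainly to Gq, phospholipase C and calcium release. In the amygdala the peptides are known as modulators of fear and anxiety, with Cck prominent in glutamatergic projection neurons and a class of basket interneurons, and Tac1 and Nts in GABA neurons of the central nucleus.

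The 250 bases before the start of Tac1, Nts, Tacr1 and Tacr3 are shown from RefSeq (build GRCr8), since Tac1 is the precursor whose difference between the groups was closest to the threshold, Nts the precursor that spread most among the controls, and Tacr1 and Tacr3 the tachykinin receptors. They are written 5′ to 3′ along the gene. Capitals mark any of the searched motifs on either strand, namely the cAMP response element TGACGTCA, its half-site TGACG, the AP-1 site TGANTCA, the E-box CACGTG and the hypoxia response core ACGTG, the last of which lies inside the E-box.
Tac1 (chr4:36645333-36645582, plus strand): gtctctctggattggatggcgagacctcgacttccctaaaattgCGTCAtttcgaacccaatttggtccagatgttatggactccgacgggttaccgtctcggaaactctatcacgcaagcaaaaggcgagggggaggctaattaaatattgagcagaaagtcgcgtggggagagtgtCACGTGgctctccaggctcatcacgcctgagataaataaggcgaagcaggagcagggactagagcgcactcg
Nts (chr7:39460889-39461138, minus strand): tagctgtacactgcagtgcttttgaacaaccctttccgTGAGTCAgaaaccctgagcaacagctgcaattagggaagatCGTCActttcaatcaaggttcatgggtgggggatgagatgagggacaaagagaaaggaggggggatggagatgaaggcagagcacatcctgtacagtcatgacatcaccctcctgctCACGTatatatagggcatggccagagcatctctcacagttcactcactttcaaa
Tacr1 (chr4:116478367-116478616, plus strand): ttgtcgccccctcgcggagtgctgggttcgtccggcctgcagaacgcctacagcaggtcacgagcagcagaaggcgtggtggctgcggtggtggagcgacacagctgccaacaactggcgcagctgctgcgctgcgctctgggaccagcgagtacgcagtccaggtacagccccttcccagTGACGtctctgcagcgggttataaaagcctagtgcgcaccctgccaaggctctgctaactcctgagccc
Tacr3 (chr2:225940247-225940496, plus strand): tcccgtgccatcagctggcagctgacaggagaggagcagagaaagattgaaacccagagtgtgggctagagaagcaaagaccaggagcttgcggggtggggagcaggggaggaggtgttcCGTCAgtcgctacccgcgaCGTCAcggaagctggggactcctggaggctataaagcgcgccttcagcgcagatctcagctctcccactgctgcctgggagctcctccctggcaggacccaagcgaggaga

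Windows of 300 bases, from 250 before to 50 after the start, were available in the reference for 7 of the 10 genes and for 33469 genes in all. The half-site TGACG was found in 5 of the 7, those of Tac1, Nts, Tacr1, Tacr3 and Ntsr1, and in 21.2% of all windows. Tac1 held it at -206 from the start on the minus strand and an E-box at -72, and E-boxes were in 6.42% of all windows. In the Nts window an AP-1 site lay at -212 and a half-site at -171. AP-1 sites were in 7.33% of all windows, and the hypoxia core, present in Tac1 and Nts, was in 19.3%. The whole element TGACGTCA was in 0 of the 7 windows and in 1.83% of all windows. A match is a description of these letters only, and no chromatin measurement of these windows was analysed here.

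The libraries held 62576504 to 70755739 reads assigned to genes. Values below are CPM, a gene's reads divided by its library's total in units of 1e6 reads after TMM scaling between libraries. Defining markers of the amygdala were present in every library, with summed levels of 593 to 1290 CPM for 9 markers of cortical-type and basolateral glutamatergic neurons and of 192 to 237 CPM for 5 markers of central amygdala GABA neurons. Some libraries stood apart in other tissue. The 8 choroid plexus markers summed to 514, 1120 and 885 CPM in control replicates 1, 2 and 3, and to 11.7, 13.3 and 478 CPM in the ethanol replicates. Of these 8 markers 7 were tested, 7 were lower in the ethanol group with 3 at an unadjusted edgeR p below 0.05, and Otx2 was at or near 0 in every library. The 9 hypothalamic markers summed to 346 CPM in ethanol replicate 3 against 19.4 to 122 CPM in the other 5 libraries. Oligodendrocyte markers (6) summed to 3550 CPM in control replicate 2 and to 9720 CPM in ethanol replicate 3, with 4350 to 8380 CPM in the others. The 5 matched markers of ciliated ependyma were lower in the ethanol group, 2 of them at an unadjusted edgeR p below 0.05, and summed to 46.6 and 47.1 CPM in ethanol replicates 1 and 2 against 58.1 to 72.3 CPM elsewhere. Log2 fold changes of the 10 genes are therefore also given without ethanol replicate 3. That fit keeps only ethanol replicates 1 and 2, the libraries lowest in choroid plexus and ependymal RNA. The groups then differ without overlap in both of these sums, so the fit does not remove that difference. In bulk tissue, fewer cells of a type and less RNA per cell cannot be told apart.

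Ordered by level per exon length (CPM per kb), the highest were Ntsr2 with 76.9 ± 11.5 and Cck with 74.7 ± 14.8 (SD, n = 6 libraries), followed by Tac1 with 45.3 ± 9.77. Tac3, Nts and Cckbr came next at 14.4 ± 8.04, 14.0 ± 4.68 and 11.1 ± 0.717 CPM per kb. Tacr1 (5.33 ± 0.514) and Tacr3 (4.71 ± 0.516) were lower, and Ntsr1 (1.69 ± 0.173) and Cckar (0.807 ± 0.16) were the lowest. Ntsr2 thus lay above 94.8% of the genes tested on this scale and Cckar above 25.3%.

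Of the 9 pairs of neighbours in this order, 5 kept their order in 6 of 6 libraries, namely Cck above Tac1, Tac1 above Tac3, Cckbr above Tacr1, Tacr3 above Ntsr1 and Ntsr1 above Cckar. Each of the 5 had p = 0.0312 in a 2-sided exact sign-flip permutation test, the smallest that 6 libraries allow, and 0.0562 after Benjamini-Hochberg adjustment over the 9 pairs. The order was itself set from the means of these same 6 libraries, control and ethanol together. The pairs were thus not chosen independently of the values tested. For a pair ordered alike in 6 of 6 libraries the p-value is 0.0312 whatever its spread, so it only restates that count. The ratio of Cck to Tac1 ran from 1.07 to 3.11 and that of Cckbr to Tacr1 from 1.82 to 2.43, with the same p. Tacr1 was above Tacr3 in 5 of 6 libraries (exact p = 0.0625, adjusted 0.0938). The levels of Ntsr2 and Cck, of Tac3 and Nts, and of Nts and Cckbr did not differ beyond their spread, with the upper gene ahead in 3, 2 and 4 of the 6 libraries. Within the receptor pairs, Ntsr2 exceeded Ntsr1 per length by 37.0 to 57.5 times and Cckbr exceeded Cckar by 9.93 to 16.4 times.

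**Figure D1:**
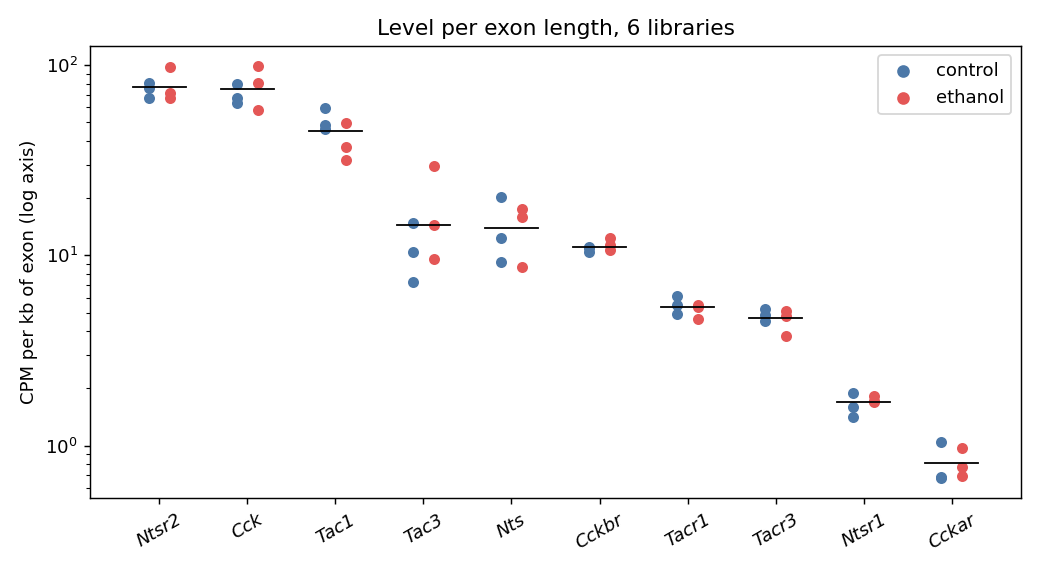
Level of the 10 genes in CPM per kb of exon (log axis), with 1 point per library, blue for control and red for ethanol, and a line at the mean of the 6 libraries. Ntsr2, Cck and Tac1 are the highest, Cckar is the lowest at 0.807 CPM per kb, and the libraries of the groups overlap for every gene.

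With edgeR's quasi-likelihood test, 0 of the 10 genes had an adjusted p below 0.2 over the 18141 genes tested (Benjamini-Hochberg), where 0% of all genes tested did. DESeq2 and edgeR's likelihood ratio test gave 0 of the 10, where 0.413% and 0.424% of all genes tested passed, and limma-voom gave 0 of the 10, where 0% passed. At an unadjusted p below 0.05 the count was 0 of 10, against 1.57% of all genes that were higher and 2.57% that were lower in the ethanol group. The 3 ethanol libraries overlapped the 3 control libraries for each of the 10, while 3.66% of all genes tested were higher and 5.19% lower without overlap. Log2 fold changes were above 0 for 7 genes and below 0 for 3, with a median of 0.10 over the 4 precursors and 0.05 over the 6 receptors, beside 0.006 over all genes tested.

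**Figure D2:**
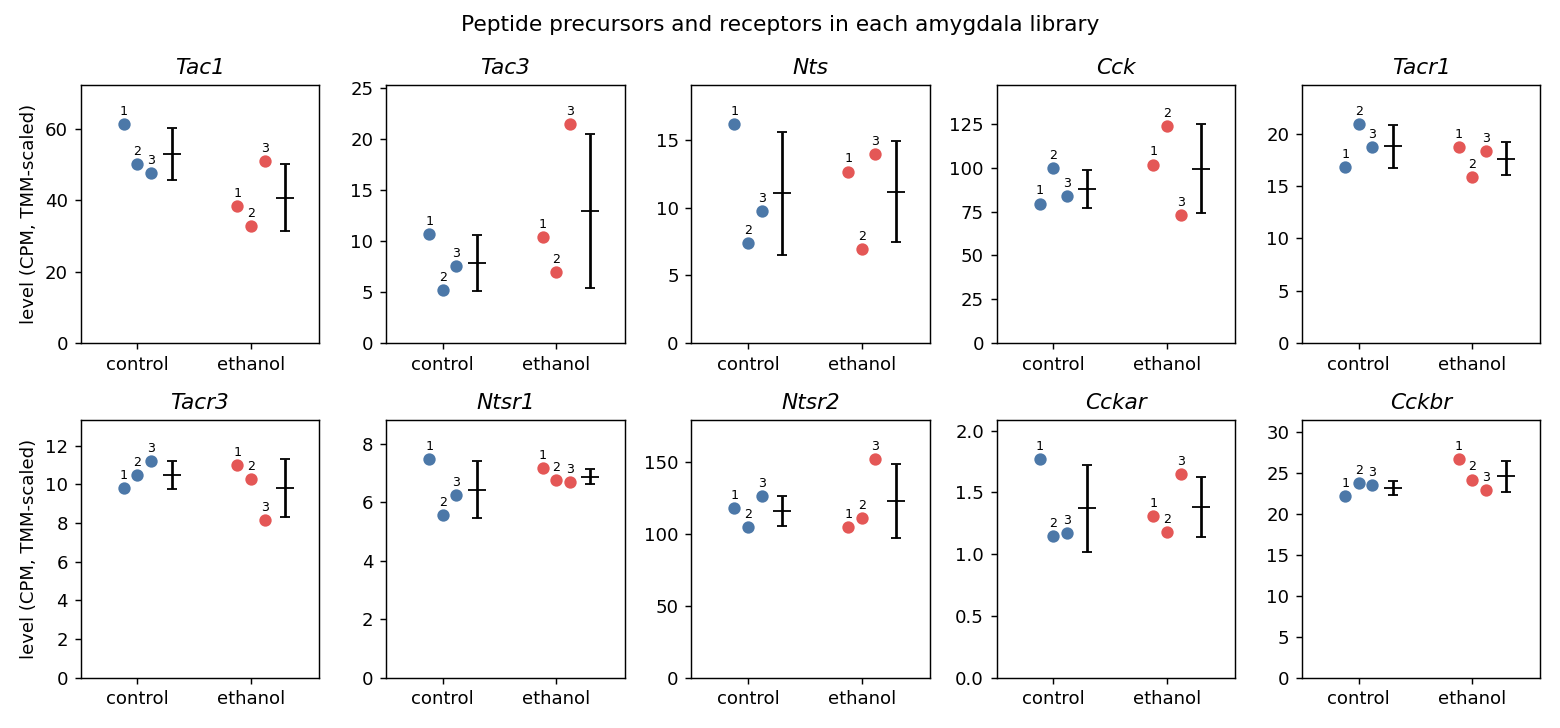
CPM of each gene in the control (blue) and ethanol (red) libraries, numbered by replicate, with the mean and SD of each group (n = 3) in black and every axis starting at 0. The ethanol libraries of Tac1 reach from 32.8 to 51.1 CPM and overlap the controls through replicate 3, and Tac3 is highest in ethanol replicate 3 at 21.4 CPM.

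Tac1 (NCBI gene 24806, Rnor_6.0 chromosome 4 from 33638853 to 33646819, 7 exonic blocks) was counted at 61.3, 50.1 and 47.7 CPM in control replicates 1, 2 and 3 and at 38.3, 32.8 and 51.1 CPM in the ethanol replicates. Ethanol replicates 1 and 2 lay below every control, while ethanol replicate 3 lay inside the control range. The group means were 53.0 ± 7.28 and 40.7 ± 9.41 CPM (SD, n = 3 libraries each), a log2 fold change of -0.38 (standard error 0.17, 95% interval -0.77 to 0.00). Its unadjusted p of 0.0521 became 1.0 after adjustment (edgeR), and the 2-sided exact permutation test over the 6 libraries gave p = 0.3. With ethanol replicate 3 left out, the estimate was -0.58 (edgeR unadjusted p = 0.00237, adjusted p = 0.286). The unadjusted edgeR p was 0.176 without control replicate 1, 0.132 without ethanol replicate 1 and 0.153 without ethanol replicate 2, when the log2 fold change was -0.25. It was 0.0474 without control replicate 3. On all 6 libraries the unadjusted p was 0.021 with DESeq2 and 0.0439 with limma-voom. The log2 fold change stayed below 0 in each of the 13 other settings tried. The libraries low in Tac1, ethanol replicates 1 and 2, were also those low in choroid plexus RNA (11.7 and 13.3 CPM in sum) and in ependymal RNA. They are the only ethanol libraries in the fit without ethanol replicate 3. Tac1 ordered 10 of 15 library pairs as the choroid plexus sum did and 9 as the ependymal sum did. It ordered 11 as the hypothalamic sum and as the sum of 4 markers of other glutamatergic neurons did, but 3 as the cortical-type and basolateral sum did. Slc17a6, at 79.1 to 135 CPM, made up most of the sum for other glutamatergic neurons. With the striatal-type sum Tac1 ordered 9 of 15 pairs alike, and with the central amygdala sum 7. The part of these tissues in the Tac1 difference was not tested.

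Tac1 was also set against Penk, the enkephalin precursor, which marks striatal-type and central amygdala GABA neurons. The Tac1 to Penk ratio of CPM per kb was 0.432, 0.55 and 0.426 in controls and 0.236, 0.305 and 0.418 after ethanol. All 3 ethanol ratios were below the controls, ethanol replicate 3 by little. The Tac1 to Tac3 ratio of CPM per kb was 4.00, 6.71 and 4.43 in controls and 2.57, 3.30 and 1.67 after ethanol, again without overlap. The lowest, in ethanol replicate 3, came with Tac3 at 21.4 CPM, above every other library. Tac1 was at 51.1 CPM there, inside the control range of 47.7 to 61.3 CPM. For each ratio the 2-sided exact permutation test gave p = 0.1, the smallest that 3 libraries against 3 allow, and 0.35 after adjustment over the 7 ratios computed, which were chosen with the levels known. Tac1 against its receptor gene Tacr1 overlapped between the groups, with ratios of 12.1, 7.91 and 8.45 in controls and 6.75, 6.83 and 9.22 after ethanol (exact permutation p = 0.3, adjusted 0.525). Tac1 against Cck also overlapped, at 0.935, 0.606 and 0.689 in controls and 0.456, 0.322 and 0.847 after ethanol, with the same p-values. In the other 3 ratios, which do not hold Tac1, the exact p was 0.7 to 0.9. Penk itself was at 224, 144 and 177 CPM in controls and 257, 170 and 193 CPM after ethanol, a log2 fold change of 0.18.

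Tac3 (NCBI gene 29191, chromosome 7 from 71023976 to 71030582) was at 10.7, 5.22 and 7.54 CPM among controls and at 10.4, 6.95 and 21.4 CPM after ethanol. Ethanol replicate 3 was far above every other library, and the other ethanol libraries lay within the control range. The log2 fold change was 0.73 (standard error 0.42, 95% interval -0.24 to 1.69, edgeR adjusted p = 1.0), and it was 0.15 without ethanol replicate 3. That library also held the most hypothalamic RNA, with the melanin-concentrating hormone precursor Pmch at 206 CPM against 2.12 to 14.5 CPM elsewhere. Over the 6 libraries, Tac3 and the summed hypothalamic markers ordered 14 of 15 pairs of libraries alike. So did Tac3 with the striatal-type sum and with the sum of the 4 markers of other glutamatergic neurons, which was mostly Slc17a6. These lists were picked after the values were seen, and their part in the result was not tested.

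Nts (NCBI gene 299757, chromosome 7 from 44111594 to 44120998) spread widely within each group, with 16.2, 7.38 and 9.79 CPM in controls and 12.7, 6.95 and 14.0 CPM after ethanol. The coefficient of variation was 41.0% and 33.5%, and the group means of 11.1 and 11.2 CPM were close. Its log2 fold change was 0.01 (standard error 0.33), and its 95% interval from -0.76 to 0.78 spans 0.591-fold to 1.72-fold (edgeR adjusted p = 1.0). The estimate was -0.18 without ethanol replicate 3. The 11 striatal-type markers summed to 486, 305 and 373 CPM in controls and 491, 351 and 528 CPM after ethanol, and Nts ordered 12 of 15 library pairs as this sum did. It also ordered 12 as the hypothalamic sum did, but 6 as the central amygdala sum and 2 as the cortical-type and basolateral sum did. The markers of other glutamatergic neurons, at 88.9 to 150 CPM in sum, ordered 14 of 15 pairs as Nts did. Slc17a6 alone made up most of that sum, at 79.1 to 135 CPM. The part of any of these neurons in the Nts values was not tested.

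Cck (NCBI gene 25298, chromosome 8 from 130120525 to 130127515) was at 79.7, 100.0 and 84.2 CPM among controls and at 102, 124 and 73.4 CPM after ethanol. The highest and the lowest library both belonged to the ethanol group. The log2 fold change was 0.18 (standard error 0.18, 95% interval -0.24 to 0.59, edgeR adjusted p = 1.0). It was 0.36 when ethanol replicate 3 was left out (edgeR unadjusted p = 0.0206, adjusted p = 0.484), and without ethanol replicate 2 it was -0.01. In the fit without ethanol replicate 3, Tac1 and Cck were the members with an unadjusted p below 0.05, 1 in each direction, while 4.48% of all genes tested there were higher and 4.4% lower. Markers of cortical-type and basolateral glutamatergic neurons summed to 674, 1110 and 836 CPM in controls and 1010, 1290 and 593 CPM after ethanol. Cck and these markers ordered 14 of 15 library pairs alike, and Cck and the interneuron markers 13 of 15. With the hypothalamic sum and with the markers of other glutamatergic neurons it was 2 of 15 each. The part of any of these neurons in the Cck values was not tested.

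**Figure D3:**
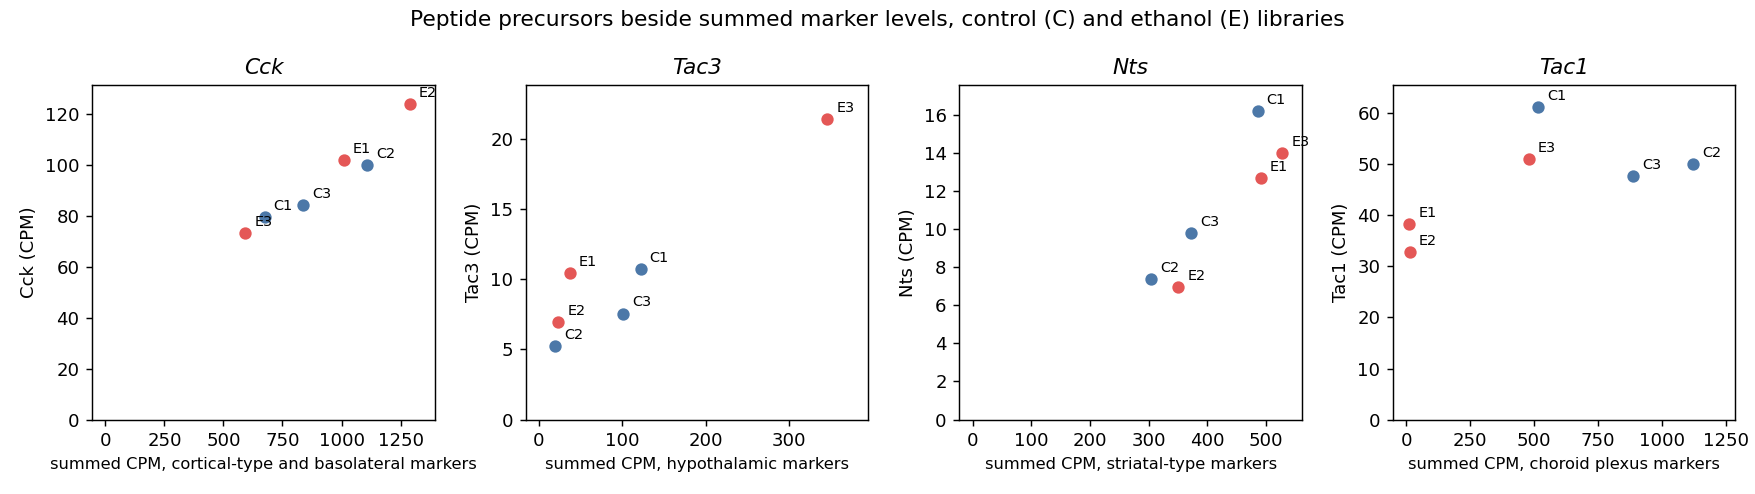
CPM of a peptide precursor in each library against the summed CPM of a marker list in the same library, blue for control (C) and red for ethanol (E), with both axes from 0. Cck is highest in E2, where the cortical-type and basolateral sum is 1290 CPM, Tac3 is highest in E3, where the hypothalamic sum is 346 CPM, and Tac1 is lowest in E1 and E2, where the choroid plexus sum is 11.7 and 13.3 CPM.

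The tachykinin receptors were steadier than the precursors. Tacr1 (NCBI gene 24807, chromosome 4 from 113247236 to 113416139), which encodes the NK1 receptor, was at 16.8, 20.9 and 18.7 CPM in controls and 18.7, 15.9 and 18.3 CPM after ethanol. Its log2 fold change was -0.09 (95% interval -0.33 to 0.15). Tacr3 (NCBI gene 24808, chromosome 2 from 240021152 to 240118971), which encodes the NK3 receptor, was at 9.79, 10.5 and 11.2 CPM in controls and 11.0, 10.3 and 8.14 CPM after ethanol, a log2 fold change of -0.10 (95% interval -0.39 to 0.19). Without ethanol replicate 3 it turned to 0.02, and that of Tacr1 was -0.12. Ethanol replicate 3, the library highest in Tac3, was the lowest in Tacr3.

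Ntsr2 (NCBI gene 64636, chromosome 6 from 41917065 to 41923780) was at 118, 105 and 126 CPM in controls and 105, 111 and 152 CPM after ethanol. Ethanol replicate 3 was the highest library, and there the 8 astrocyte markers summed to 5530 CPM against 4200 to 4940 CPM in the other libraries. Gfap made up most of that excess, at 1420 against 634 to 929 CPM. Sox9 was at 32.0 CPM there and at 40.2 and 30.3 CPM in ethanol replicates 1 and 2, each below the 42.8 to 51.9 CPM of controls. Ntsr2 ordered 11 of 15 library pairs as the astrocyte sum did, and 12 as the oligodendrocyte and as the hypothalamic sum did. The log2 fold change of Ntsr2 was 0.08 (95% interval -0.25 to 0.41) and -0.11 without that library. The part of these cells in the Ntsr2 values was not tested. Ntsr1 (NCBI gene 366274, chromosome 3 from 175982313 to 176046345) was at 7.48, 5.56 and 6.24 CPM in controls and 7.17, 6.76 and 6.69 CPM after ethanol. All ethanol values fell inside the control range, with a log2 fold change of 0.10 (95% interval -0.20 to 0.39), or 0.12 without ethanol replicate 3.

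Cckbr (NCBI gene 25706, chromosome 1 from 170262218 to 170272298), the main cholecystokinin receptor of the forebrain, had the smallest spread of the 10 genes among controls, 3.67% of the mean. It was at 22.2, 23.8 and 23.5 CPM in controls and 26.7, 24.2 and 22.9 CPM after ethanol, a log2 fold change of 0.09, or 0.14 without ethanol replicate 3. Its 95% interval from -0.09 to 0.26 bounds the change between 0.938-fold and 1.20-fold, the narrowest of the 10. Cckar (NCBI gene 24889, chromosome 14 from 59610939 to 59619786) rested on 116, 82 and 74 reads in controls and 84, 76 and 115 reads after ethanol. Its log2 fold change of 0.02 had a 95% interval of -0.51 to 0.54 and turned to -0.13 without ethanol replicate 3. No exon of the 10 genes shares bases with another gene on either strand in the annotation used for counting.

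**Figure D4:**
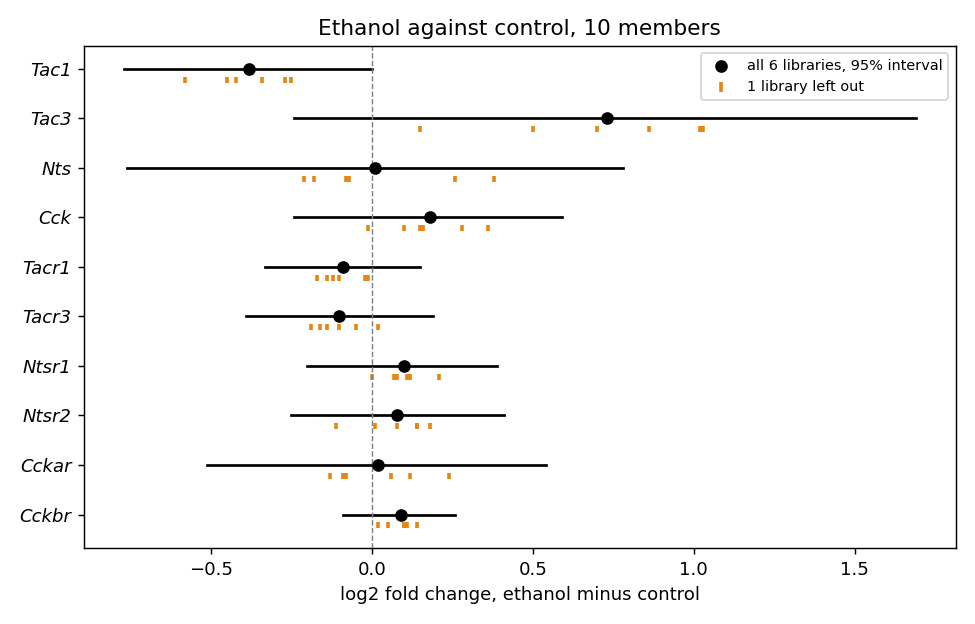
Log2 fold change of ethanol over control for the 10 genes, with the edgeR estimate from all 6 libraries (black point), its 95% interval (black line) and the estimates with 1 library left out (orange ticks). Intervals of all 10 genes reach 0, Cckbr has the narrowest and Tac3 the widest, from -0.24 to 1.69.

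Genes around the same systems were described by list, and 0 had an adjusted p below 0.2 in any list. The counts at an unadjusted p below 0.05 stand beside the 1.57% of all genes tested that were higher and the 2.57% that were lower. Of 4 further ligands and receptors (Tac4, Tacr2, Sort1 and Sorl1), 0 had an unadjusted p below 0.05, and their median log2 fold change was 0.09. The highest were the neurotensin-binding sorting receptors Sort1, at 495 to 606 CPM in controls and 504 to 686 CPM after ethanol (log2 fold change 0.14), and Sorl1, at 97.7 to 107 and 93.5 to 117 CPM (0.09). Without ethanol replicate 3 both passed the unadjusted 0.05, with log2 fold changes of 0.25 and 0.18 (edgeR adjusted p = 0.55 and 0.493), where 4.48% of all genes were higher. Among 8 genes of precursor processing, 7 were tested and 0 had an unadjusted p below 0.05, with a median of 0.04. Cpe, carboxypeptidase E, was at 2120 to 2570 and 2210 to 2350 CPM (-0.04), and Scg5, the chaperone of the convertase Pcsk2, at 393 to 440 and 398 to 444 CPM (0.06). The untested gene of this list, Pcsk1n, is listed at 0 in 5 libraries and at 1 read in ethanol replicate 1, although it is known as abundant in brain. A listed 0 here does not show that the gene is not expressed, and its cause was not tested.

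For 7 peptide-cleaving enzymes the count was again 0, with a median of 0.00. Tpp2, tripeptidyl peptidase 2, which inactivates cholecystokinin, was at 70.7 to 72.1 and 62.7 to 76.8 CPM (0.00), and Nln, neurolysin, which cleaves neurotensin, at 46.0 to 47.9 and 44.4 to 49.2 CPM (0.00). Ace, the angiotensin-converting enzyme, was at 26.5, 39.3 and 23.9 CPM in controls and 18.8, 16.0 and 27.9 CPM after ethanol (-0.52, edgeR unadjusted p = 0.0673). It passed the unadjusted 0.05 with DESeq2 (0.0203), and with edgeR without ethanol replicate 3 (-0.79, adjusted p = 0.387), where 4.4% of all genes tested were lower. Like Tac1, Ace was lowest in ethanol replicates 1 and 2, the libraries lowest in choroid plexus RNA (11.7 and 13.3 CPM in sum). It was highest in control replicate 2, where that sum was highest at 1120 CPM. Control replicate 3, with a sum of 885 CPM, held less Ace than ethanol replicate 3 with 478 CPM. The part of that tissue in the Ace values was not tested. None of the 13 genes of Gq signalling and receptor desensitization passed the unadjusted 0.05 (median 0.01). Arrb1, beta-arrestin 1, was at 397 to 419 and 399 to 437 CPM (0.05). Grk2, a receptor kinase, was at 206 to 215 CPM in controls and 216 to 227 CPM after ethanol without overlap (0.09, edgeR unadjusted p = 0.165). Arrb2, beta-arrestin 2, was lower without overlap, at 58.5 to 59.3 and 53.8 to 56.0 CPM (-0.09, edgeR unadjusted p = 0.115). These are 1 of 13 genes in each direction, beside 3.66% and 5.19% of all genes tested. Without ethanol replicate 3, Gnaq, a Gq alpha subunit (0.16), and Plcb1, a phospholipase C (0.26), passed the unadjusted 0.05 (edgeR adjusted p = 0.529 and 0.329). In that fit 4.48% of all genes tested were higher at this threshold.

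Among 30 other neuropeptide precursors, 27 were tested, 15 had a log2 fold change above 0 and 12 below, and the median was 0.03. Cartpt, the precursor of the CART peptides, was the 1 gene with an unadjusted p below 0.05 (0.035 from edgeR, 0 with an adjusted p below 0.2). It was at 15.1, 14.0 and 12.9 CPM in controls and 14.1, 24.0 and 19.4 CPM after ethanol, so that ethanol replicate 1 stayed in the control range. It did not pass the unadjusted 0.05 with limma-voom or when control replicate 2 or 3 or ethanol replicate 2 or 3 was left out. The most abundant, Penk and Sst (somatostatin, 132 to 167 CPM in controls and 134 to 162 CPM after ethanol), had log2 fold changes of 0.18 and 0.00. Npy, a further precursor on this list, is listed at 0 in all 6 libraries. It is known to be expressed in amygdala interneurons, so that this 0 does not show a lack of expression, and its cause was not tested.

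Genes whose log2 CPM followed each precursor most closely over the 6 libraries were sought among 14179 genes of at least 1 CPM, as a description without a test. For Tac1 these were Dhrs1, Oxnad1 and Ttc21b (Pearson r = 0.996, 0.993 and 0.99), and for Cck they were Galnt18, Plxna2 and Lsm14b (0.996 each). Those of Tac3 were Cnppd1, Peli2 and Nostrin (0.992, 0.99 and 0.988), and those of Nts were LOC102554909, Gng4 and Cbln4 (0.994, 0.99 and 0.988). The 6 points of each correlation include both groups and share whatever tissue each library held.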

How the data were processed

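RNA-seq was carried out on pooled amygdala RNA with a stranded mRNA kit and single-end reads. The authors deposited raw counts per gene, made per the file headers with featureCounts 1.6.3 (reverse-stranded, exons of the NCBI Rnor_6.0 annotation), and the submitters' processing notes also list STAR 2.7.0f. Nothing had been normalized. Symbols were matched by gene identifier for 29322 of 38445 genes (RefSeq table of GRCr8).

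From these counts, edgeR 4.0.16 (R 4.3.3) was used for all main values. After filterByExpr (minimum 10 counts, 15 in total) and TMM scaling, the ethanol effect was estimated with glmQLFit and glmQLFTest. The p-values were adjusted over 18141 genes by the Benjamini-Hochberg method, with a threshold of 0.2. Standard errors are the log2 fold change divided by the square root of F, and intervals use the test's degrees of freedom. Log2 CPM carries a prior count of 2. Alternatives used limma 3.58.1 and DESeq2 1.42.0.

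Libraries came from different rats. With 62576504 to 70755739 reads each, 3 counts correspond to 0.0422 to 0.0473 CPM, a floor for counting error only. The members and lists were chosen with earlier results of these data known. The rule for named genes took all 10 members, in each related list the genes with an unadjusted p below 0.05 and the 2 most abundant, and 3 correlates per precursor. Genes named besides these were chosen after their values were seen.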

Additional observations from a re-analysis of the deposited data

How the results depend on the processing

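The 10 genes had 0 adjusted p below 0.2 in each of the 13 alternative settings. Over all genes the count of 0 became 75 with DESeq2 and 77 with edgeR's likelihood ratio test, and 0 to 83 with each library left out (83 without ethanol replicate 3, 4 without ethanol replicate 1). At an unadjusted p below 0.05, 1 of the 10, Tac1, passed with RLE size factors, no filter on low counts, DESeq2, the likelihood ratio test, limma-voom and the replicate number as a block, and 0 to 2 with each library left out (Tac1 and Cck without ethanol replicate 3, Tac1 without control replicate 3, Tac3 without ethanol replicate 2). Of all 18141 genes tested, 750 passed with RLE size factors, 819 with library size alone and 646 with DESeq2. The likelihood ratio test gave 693, limma-voom 780 and the replicate block 1015. With no filter it was 1011 of 27728. Leaving out 1 library gave from 570 of 18401 (without control replicate 3) to 1629 of 18356 (without ethanol replicate 3). The deviations of same-numbered libraries from their group means correlated by 0.0264, 0.388 and 0.211 over 14241 genes. Control replicates 2 and 3 each correlated best with the ethanol replicate of the same number, and control replicate 1 with ethanol replicate 3 (0.305). With 3 libraries per group these correlations cannot decide whether the numbers pair the libraries. The replicate block changed no call at the adjusted threshold and gave 1015 genes with an unadjusted p below 0.05 against 752. Counts of related genes at that threshold moved in 4 of the lists. Other neuropeptide precursors went from 1 to 0 with limma-voom, 2 with no filter and with the likelihood ratio test, 4 with the replicate block, and 0 to 3 with each library left out. Peptide-cleaving enzymes went from 0 to 1, Ace, with no filter, DESeq2 and the likelihood ratio test and without control replicate 3 or ethanol replicate 3. Gq signalling went from 0 to 1 with library size alone, 2 with the block, 1 without ethanol replicate 2 and 2 without ethanol replicate 3, and further ligands and receptors to 2 without ethanol replicate 3.

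Of 130 log2 fold changes of the 10 genes under alternatives, 118 kept their sign and 12 did not. With library size alone Nts and Cckar were at -0.01 each. With each library left out Nts ranged from -0.21 to 0.38, Cck from -0.01 to 0.36, Tacr3 from -0.19 to 0.02, Ntsr2 from -0.11 to 0.18 and Cckar from -0.13 to 0.24. Tac1 ranged from -0.58 to -0.25 and Tac3 from 0.15 to 1.03 without changing sign. The cause was not tested.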
